A study of Mus musculus with 18 samples.

Results

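The genes described here are 50 genes of the cell cycle and of DNA replication, taken from a list of names that covers helicase loading, DNA polymerases, nucleotide supply, the cyclins and their kinases, and the proteins that move chromosomes in mitosis. All 50 had at least 1 FPKM (fragments per kilobase of transcript and per M mapped fragments) in at least 2 of 18 RNA-seq libraries, and they were followed among the 12259 genes that passed this filter. Of the 50, 47 were above 0 in every library, so that the filter did not select them through the line in which they were high. The cells were immortalized mouse embryonic fibroblasts (MEFs) that lacked their own RelA, the NF-κB subunit that carries a transactivation domain, and had been given mouse RelA back from a retroviral vector. The RelA(TA2) line carried RelA with the substitutions L449A and F473A in the transactivation region that binds the TAZ1 domain of the coactivators CBP and p300. The RelA(S276A) line carried RelA with the phosphorylated serine of the Rel homology region replaced by alanine. The RelA(wt) line carried the unaltered protein. Each line was taken before TNFα (0 h) and after 1 h and 2 h of 5 ng/ml TNFα, with 2 libraries for each of the 9 conditions. All 3 lines thus shared the loss of endogenous RelA and the viral vector, and each mutation was represented by 1 reconstituted cell population as far as the labels tell. A difference between lines therefore cannot be told apart from any other difference between these populations.

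Cells that commit to division switch on these genes in waves. In G1, D-type cyclins with CDK4 start to release E2F factors from pocket proteins of the retinoblastoma family, and E2F then drives the genes for helicase loading, the replicative polymerases, nucleotide supply and cyclin E. Later in the cycle a complex of B-Myb, FOXM1 and the MuvB core drives the genes for mitotic entry and chromosome segregation, whose promoters often hold a CHR element and CCAAT boxes. In a culture that is not synchronized, the level of these RNAs follows how many cells are in each phase as well as how much RNA each cell holds, and fewer cells in a phase cannot be told apart from less RNA per cell in libraries from bulk RNA. Cyclin D1 and Myc are also known as genes that NF-κB can influence.

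The promoters of 39 of the 50 genes were found in the RefSeq promoter set (GRCm38.p6, 250 bases before to 50 bases after each start). The promoters of 4 of them are shown, picked by small adjusted p in each direction of the differences between lines and not by their motifs. These genes were higher in RelA(S276A) than in the other lines past the test. Each promoter holds an E2F octamer or the CHR hexamer, and none holds both. Capitals mark the E2F octamers TTTCCCGC and TTTGGCGC, the CHR hexamer TTTGAA and the CCAAT box, each on either strand, and no motif is contained in another. Mcm6 (chr1:128359656-128359955, minus strand) encodes a subunit of the replicative helicase and holds E2F octamers at -110 and -47. Mki67 (chr7:135716330-135716629, minus strand) encodes the Ki-67 protein of proliferating cells and holds the CHR hexamer at -116 and -98. Mcm7 (chr5:138171834-138172133, minus strand), for another helicase subunit, holds the reverse complement of an E2F octamer at -165, and Pola1 (chrX:93632106-93632405, minus strand), for the catalytic subunit of DNA polymerase alpha, at -138. Positions are those of the leftmost base as printed, counted from the start.
Mcm6: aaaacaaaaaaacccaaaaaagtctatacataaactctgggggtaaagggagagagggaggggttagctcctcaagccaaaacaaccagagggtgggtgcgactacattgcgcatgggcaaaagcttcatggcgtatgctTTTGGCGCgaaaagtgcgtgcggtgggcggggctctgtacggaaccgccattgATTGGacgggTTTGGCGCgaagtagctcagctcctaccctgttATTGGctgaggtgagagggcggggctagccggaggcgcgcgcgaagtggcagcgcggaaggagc
Mki67: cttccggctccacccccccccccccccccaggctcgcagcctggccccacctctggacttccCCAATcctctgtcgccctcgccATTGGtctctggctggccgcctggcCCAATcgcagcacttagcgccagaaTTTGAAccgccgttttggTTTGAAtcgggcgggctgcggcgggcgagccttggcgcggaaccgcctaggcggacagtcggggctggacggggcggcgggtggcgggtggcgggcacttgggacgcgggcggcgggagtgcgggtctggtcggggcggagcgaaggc
Mcm7: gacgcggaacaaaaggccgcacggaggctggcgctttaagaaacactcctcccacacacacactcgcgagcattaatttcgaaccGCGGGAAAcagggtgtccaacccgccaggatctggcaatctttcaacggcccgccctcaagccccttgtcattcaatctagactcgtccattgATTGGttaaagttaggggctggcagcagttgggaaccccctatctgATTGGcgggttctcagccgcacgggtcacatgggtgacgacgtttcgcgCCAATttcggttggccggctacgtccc
Pola1: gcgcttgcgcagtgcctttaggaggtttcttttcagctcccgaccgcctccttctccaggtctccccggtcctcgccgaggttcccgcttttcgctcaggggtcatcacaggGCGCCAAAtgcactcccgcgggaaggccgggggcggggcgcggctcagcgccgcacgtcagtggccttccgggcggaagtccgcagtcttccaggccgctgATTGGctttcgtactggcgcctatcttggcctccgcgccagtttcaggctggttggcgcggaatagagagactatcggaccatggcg
An E2F octamer was present in 10 of the 39 promoters (25.6%), against 441 of 27025 promoters in the whole set (1.63%). The CHR hexamer was present in 13 (33.3%), against 18.1% of all promoters, and a CCAAT box in 30 (76.9%), against 37.9% of all promoters. The motifs differed between roles. E2F octamers were found in 6 of 11 promoters of licensing and helicase genes and in 3 of 6 of the polymerase group, but in 0 of 5 of mitotic entry genes and 0 of 10 of chromosome and spindle genes. CHR hexamers were found in 4 of 5 and 7 of 10 of these, and in 2 of 11 licensing and 0 of 6 polymerase promoters. Nucleotide supply promoters held an E2F octamer in 0 of 3 and the CHR hexamer in 0 of 3. Those of G1 and S regulators held an E2F octamer in 1 of 4 and the CHR hexamer in 0 of 4. A match describes letters in the promoter and not binding of a factor.

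The gene that was altered was followed first. Rela (mm10, chr19:5637490-5648130, plus strand) showed 344, 315, 366, 329, 327 and 323 FPKM in RelA(TA2) cells, 186, 174, 211, 175, 190 and 174 FPKM in RelA(S276A) cells and 165, 176, 187, 182, 168 and 156 FPKM in RelA(wt) cells (libraries at 0, 0, 1, 1, 2 and 2 h). Every RelA(TA2) library lay above every library of the other lines. The log2 difference from RelA(wt), as the mean over the 3 times, was 0.95 ± 0.06 in RelA(TA2) cells (SE, limma adjusted p = 3.88e-06) and 0.10 ± 0.06 in RelA(S276A) cells (adjusted p = 0.314). The substitutions themselves cannot be seen in FPKM, and the part of the higher Rela RNA in the results on RelA(TA2) cells was not tested. These are levels of RNA and not of protein. The paper puts RelA protein in the RelA(S276A) line at about 3 times below that in RelA(wt) cells. The part of that protein difference in the results on RelA(S276A) cells was not tested either.

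Libraries held 25.3 M to 31.3 M mapped fragments. All 8 fibroblast markers, among them Col1a1, Col3a1 and Pdgfrb, were at or above 1 FPKM in every library, and their summed level was 4129 to 4802 FPKM in RelA(TA2), 3485 to 4152 FPKM in RelA(S276A) and 3745 to 4620 FPKM in RelA(wt) libraries. Of the lists for other cell types, 2 of 5 macrophage markers in the files, 1 of 4 endothelial, 1 of 4 muscle and 1 of 3 neural markers reached 1 FPKM in every library, and 0 of 4 epithelial markers did. The macrophage list summed to 7.65 to 14.4 FPKM in RelA(TA2), 9.33 to 27.2 FPKM in RelA(S276A) and 12.6 to 27.2 FPKM in RelA(wt) libraries. The neural list summed to 7.46 to 16.6, 7.75 to 10.9 and 15.2 to 19.2 FPKM in the same order of lines, and the endothelial and muscle lists stayed at or under 12.3 FPKM. The markers Ptprc, Emr1 and Itgam (macrophage), Pecam1 and Tek (endothelial), all 4 epithelial markers, Myod1 and Myog (muscle) and Sox10 (neural) were listed at 0 in every library. The other macrophage, endothelial, muscle and neural markers in the files were above 0 in at least 1 library. FPKM were added over the pieces in which a gene had been assembled, and a gene that fell into several pieces gained FPKM without gaining reads. Ccnb1, for example, was listed at 472 FPKM in the first RelA(wt) library at 1 h, where it was assembled in 2 pieces, and at 22.6 to 29.9 FPKM in the other RelA(wt) libraries. Each comparison was therefore also made on the number of fragments, per M fragments in genes. This number was recovered from FPKM and their confidence limits for transcripts alone at their assembled locus. For other transcripts it was estimated from FPKM and transcript length. Ccnb1 had 65.2 fragments per M in that library and 58.1 to 73.0 per M over all RelA(wt) libraries. Over the 47 genes, the SD within a condition had a median of 0.245 on the log2 scale of FPKM and 0.149 on that of fragments.

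The second RelA(TA2) library at 0 h stood apart in these genes. The 47 genes were lower in it than in the first library of that condition by a median log2 difference of -0.53 in fragments, while the median over all genes was 0.01. In the other 8 conditions the same median lay between -0.13 and -0.01. It was the size of this median that set the library apart and not the number of genes, since 44 of the 47 were lower in the second library here and also in RelA(wt) at 0 h. The median of these genes was lower in the second library in all 9 conditions. Summed over the 47 genes, the first library held 5830 and the second 4778 fragments per M, and Ccnd2 went the other way, with 512 and 707 fragments per M. Over all genes the correlation of the pair (0.956) lay within that of the other pairs (0.954 to 0.972). Where a count changed by more than 1.5 times without 1 of these 2 libraries, this is stated, without the share of all genes. All comparisons share 1 estimate of the spread, so that a count can change where its own libraries did not.

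As a group, the 47 genes were highest in RelA(S276A) cells, lower in RelA(TA2) cells and lowest in RelA(wt) cells. The median log2 deviation of a library from each gene's mean over all libraries was 0.17, -0.32, 0.07, 0.07, 0.10 and 0.02 in the RelA(TA2) libraries in fragments. It was 0.37, 0.27, 0.35, 0.22, 0.23 and 0.23 in the RelA(S276A) libraries. In the RelA(wt) libraries it was -0.10, -0.24, -0.26, -0.28, -0.40 and -0.45. The groups of RelA(S276A) and RelA(wt) libraries did not overlap, and the RelA(TA2) libraries lay between them except for the second at 0 h. The order from RelA(S276A) through RelA(TA2) to RelA(wt) held for the fitted means of 36 of 50 genes in FPKM and of 43 of 50 in fragments, although neighbours in it often differed by less than their spread.

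**Figure D1:**
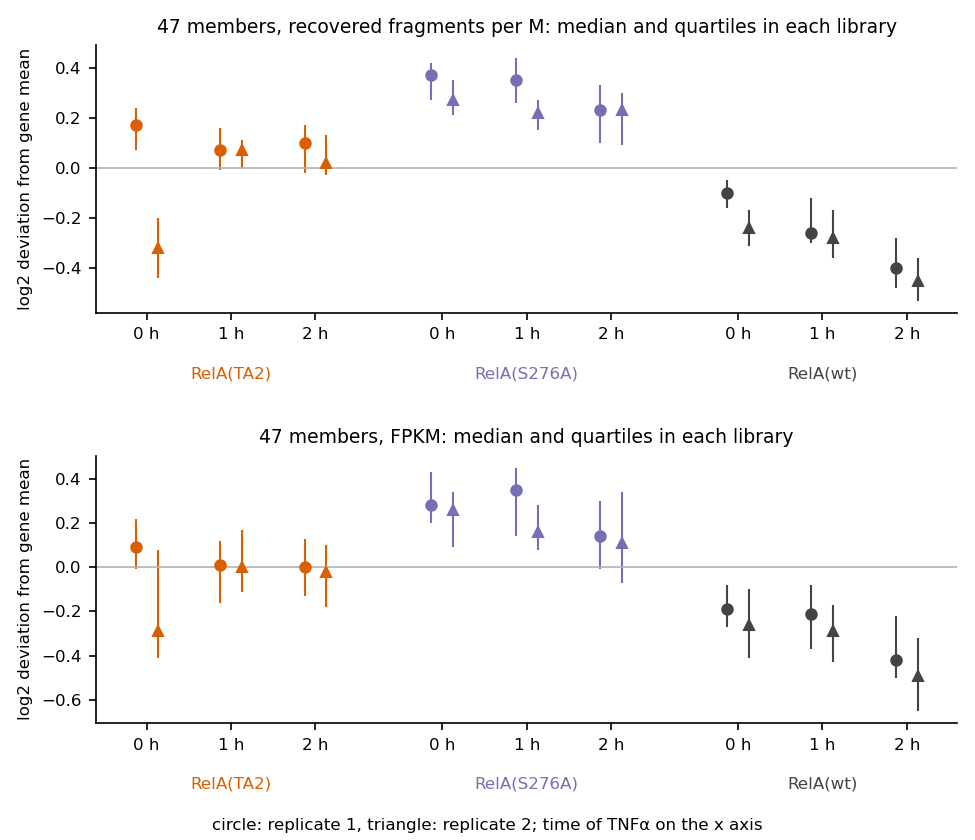
Level of the 47 genes that were above 0 in every library, as the median (symbol) and quartiles (line) of their log2 deviation from the gene's mean over 18 libraries, with lines and times on the x axis, recovered fragments above and FPKM below. The RelA(S276A) medians lie between 0.22 and 0.37 in fragments and the RelA(wt) medians between -0.45 and -0.10, while the second RelA(TA2) library at 0 h lies at -0.32, below the other RelA(TA2) libraries.

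In RelA(TA2) cells, 8 of the 50 genes rose and 1 fell against RelA(wt) as the mean over the times in FPKM (limma, adjusted p under 0.05), where 5.78% of all genes tested rose and 6.06% fell. The median over the 50 genes was 0.29 on the log2 scale, and 0.00 over all genes. In recovered fragments 38 rose and 1 fell, where 20.8% of all genes rose and 21.1% fell, with a median of 0.31. In RelA(S276A) cells, 29 of the 50 genes rose and 0 fell in FPKM, where 7.23% of all genes rose, and the median was 0.54 against 0.02 over all genes. In fragments 45 rose, where 24.2% of all genes did. RelA(TA2) was lower than RelA(S276A) in 7 genes in FPKM (7.04% of all genes) and in 27 in fragments (24.5% of all genes), with medians of -0.27 and -0.26. Both mutant lines were compared with the same 6 RelA(wt) libraries, so that these comparisons are not independent of each other. Without the second RelA(TA2) library at 0 h, 15 genes rose and 1 fell against RelA(wt) in FPKM. The count of 9 calls also rested on RelA(wt) libraries, since it was 1 without the second of them at 0 h and 2 without the second at 1 h or at 2 h. It was 4 without the first RelA(TA2) library at 2 h, and 5 without the first RelA(wt) library at 0 h, the first RelA(TA2) library at 1 h or the second RelA(TA2) library at 2 h. The 7 genes lower in RelA(TA2) than in RelA(S276A) became 15 without the first RelA(TA2) library at 0 h and 4 without the first RelA(S276A) library at 0 h.

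**Figure D2:**
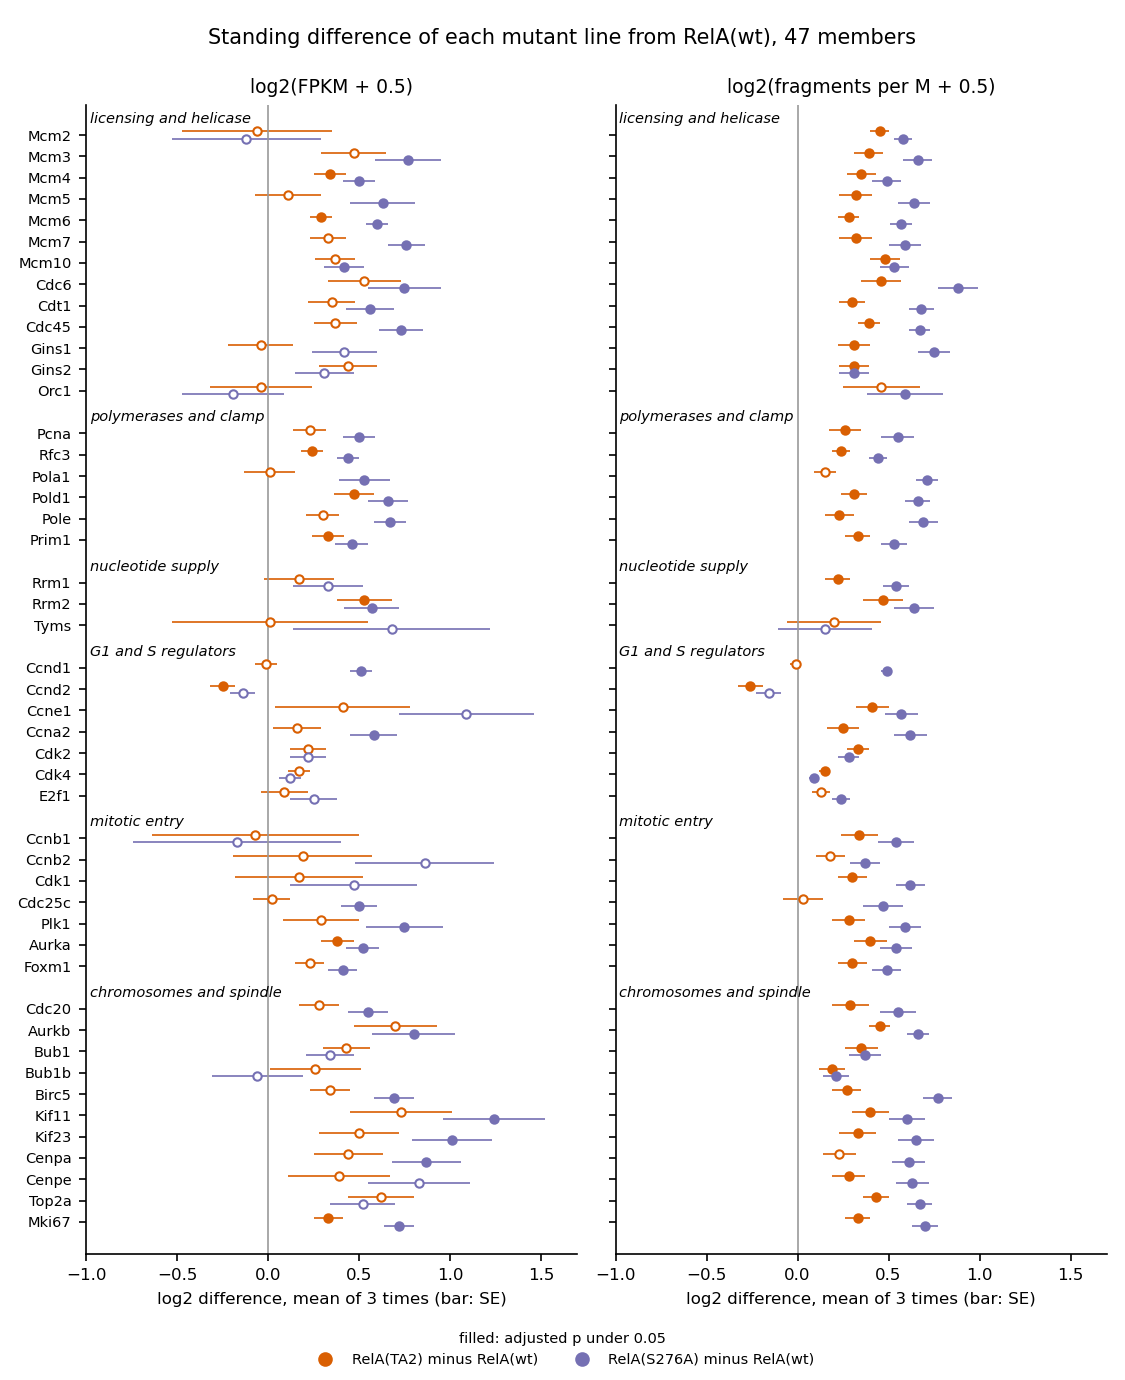
Log2 difference of RelA(TA2) (orange) and RelA(S276A) (violet) from RelA(wt), as the mean over 0, 1 and 2 h, for 47 genes by role, with FPKM on the left and recovered fragments on the right. Bars are SE and filled symbols have an adjusted p under 0.05. In fragments nearly all symbols lie right of 0, the RelA(S276A) symbol mostly right of the RelA(TA2) symbol, with Ccnd2 left of 0 in both lines and Ccnd1 at -0.01 in RelA(TA2).

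The genes for licensing and helicase activity load and start the MCM helicase at origins. Of 14, 2 rose in RelA(TA2) cells in FPKM and 12 in fragments, where 5.78% and 20.8% of all genes rose. In RelA(S276A) cells 9 rose in FPKM and 13 in fragments, where 7.23% and 24.2% of all genes rose. Mcm6 had 47.5, 54.4 and 61 FPKM (lowest, median and highest library) in RelA(TA2), 65.0, 66.3 and 74.0 FPKM in RelA(S276A) and 39.3, 45.5 and 52.0 FPKM in RelA(wt) cells. The RelA(S276A) libraries lay above all others, and the RelA(TA2) and RelA(wt) libraries overlapped. The log2 difference from RelA(wt) was 0.29 ± 0.06 in RelA(TA2) (SE, adjusted p = 0.0146) and 0.60 ± 0.06 in RelA(S276A) cells (adjusted p = 2.16e-04), or 1.22-fold and 1.52-fold, and RelA(TA2) was lower than RelA(S276A) by -0.31 ± 0.06 (adjusted p = 0.0104). Mcm7 had 34.3, 45.2 and 52.7 FPKM in RelA(TA2), 47.9, 59.9 and 75.3 FPKM in RelA(S276A) and 32.2, 36.2 and 38.1 FPKM in RelA(wt) cells. It rose by 0.76 ± 0.10 in RelA(S276A) cells (adjusted p = 7.26e-04), while the difference of 0.33 ± 0.10 in RelA(TA2) cells did not pass the test in FPKM (adjusted p = 0.0576). RelA(TA2) was lower than RelA(S276A) by -0.43 ± 0.10 (adjusted p = 0.0180). Mcm4, also of the helicase ring, had log2 differences of 0.34 ± 0.09 in RelA(TA2) (adjusted p = 0.03) and 0.50 ± 0.09 in RelA(S276A) cells (adjusted p = 0.00383). Cdc45, which joins the helicase when it is activated, rose by 0.73 ± 0.12 in RelA(S276A) cells (adjusted p = 0.00269).

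Mcm2, a further subunit, shows how far the 2 measures can part. It ranged between 32.1 and 123 FPKM in RelA(TA2), 27.1 and 121 FPKM in RelA(S276A) and 25.9 and 99.3 FPKM in RelA(wt) libraries, and neither line differed in the test. In fragments it had 142, 160 and 166 per M in RelA(TA2) and 154, 171 and 186 per M in RelA(S276A), against 108, 113 and 126 per M in RelA(wt) cells. On this scale no library of either mutant line overlapped with RelA(wt), and the log2 differences were 0.45 ± 0.05 in RelA(TA2) (adjusted p = 2.81e-05) and 0.58 ± 0.05 in RelA(S276A) cells (adjusted p = 4.14e-06). Orc6, of the origin recognition complex, was listed at 0 in 11 libraries. It had 32.7 FPKM in 1 RelA(TA2) library (2 h), 21.0, 24.9, 26.8 and 30.8 FPKM in 4 RelA(S276A) libraries (0, 0, 1 and 2 h) and 25.1 and 25.2 FPKM in 2 RelA(wt) libraries (0 and 1 h). Such a jump between 0 and over 20 FPKM within a condition marks a transcript that was assembled in some libraries and not in others, and no fold change is given for it.

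The polymerase group holds the sliding clamp, its loader and the replicative polymerases with primase. Of 7 genes, 3 rose in RelA(TA2) cells in FPKM and 5 in fragments, where 5.78% and 20.8% of all genes rose. In RelA(S276A) cells 6 rose by either measure, where 7.23% of all genes rose in FPKM and 24.2% in fragments. Pcna, the clamp, had 139, 208 and 227 fragments per M in RelA(TA2), 228, 240 and 253 in RelA(S276A) and 153, 162 and 183 in RelA(wt) cells. The lowest RelA(TA2) value, 139, came from the second library at 0 h. In FPKM its log2 difference was 0.23 ± 0.09 in RelA(TA2), not past the test (adjusted p = 0.121), and 0.50 ± 0.09 in RelA(S276A) cells (adjusted p = 0.00352). Rfc3, a subunit of the clamp loader, had 18.6, 22.7 and 23.8 FPKM in RelA(TA2), 25, 25.4 and 26.8 FPKM in RelA(S276A) and 17.6, 18.8 and 19.5 FPKM in RelA(wt) cells. It rose in both, by 0.24 ± 0.06 in RelA(TA2) (adjusted p = 0.0319) and by 0.44 ± 0.06 in RelA(S276A) cells (adjusted p = 0.00106), with no overlap between RelA(S276A) and the other lines. Pold1, the catalytic subunit of polymerase delta, had 11.0, 12.3 and 19.4 FPKM in RelA(TA2) and 11.9, 15.0 and 18.2 FPKM in RelA(S276A), against 8.34, 9.35 and 10.1 FPKM in RelA(wt) cells. All libraries of both mutant lines lay above RelA(wt) for this gene, with log2 differences of 0.47 ± 0.11 in RelA(TA2) (adjusted p = 0.0215) and 0.66 ± 0.11 in RelA(S276A) cells (adjusted p = 0.00342).

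Pole and Pola1, for the catalytic subunits of polymerases epsilon and alpha, differed between the mutant lines. Pole had 3.65, 5.77 and 6.55 FPKM in RelA(TA2), 6.56, 7.25 and 7.99 FPKM in RelA(S276A) and 3.90, 4.15 and 5.15 FPKM in RelA(wt) cells, and was lower in RelA(TA2) than in RelA(S276A) by -0.37 ± 0.09 (adjusted p = 0.0273). Pola1 had 5.27, 6.52 and 6.96 FPKM in RelA(TA2), 8.56, 9.12 and 9.82 FPKM in RelA(S276A) and 5.01, 5.64 and 11.6 FPKM in RelA(wt) cells. Its log2 difference from RelA(wt) was 0.01 ± 0.14 in RelA(TA2) (adjusted p = 0.988) and 0.53 ± 0.14 in RelA(S276A) cells (adjusted p = 0.0324), and in fragments it was 0.15 ± 0.06 (adjusted p = 0.0647) and 0.71 ± 0.06 (adjusted p = 3.53e-06). Prim1, the small subunit of primase, rose in both lines, by 0.33 ± 0.09 in RelA(TA2) (adjusted p = 0.0424) and 0.46 ± 0.09 in RelA(S276A) cells (adjusted p = 0.00835). Rfc4, of the clamp loader, was listed at 0 in 2 RelA(TA2), 4 RelA(S276A) and 2 RelA(wt) libraries. Its other values were 18.5 to 20.7 FPKM in 4 RelA(TA2) libraries, 26.4 and 67.4 FPKM in 2 RelA(S276A) libraries and 16.4 to 30.5 FPKM in 4 RelA(wt) libraries.

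Of the 3 genes of nucleotide supply, Rrm2, the small subunit of ribonucleotide reductase whose level follows S phase, rose in both lines. It had 48.1, 85.9 and 105 FPKM in RelA(TA2) and 66.4, 84.7 and 97.0 FPKM in RelA(S276A), against 44.6, 56.5 and 61.8 FPKM in RelA(wt) cells. Every RelA(S276A) library was above every RelA(wt) library, and 1 RelA(TA2) library, the second at 0 h, fell among the RelA(wt) values. The log2 differences were 0.53 ± 0.15 in RelA(TA2) (adjusted p = 0.0420) and 0.57 ± 0.15 in RelA(S276A) cells (adjusted p = 0.0293), and those of the lines from each other did not pass (-0.04 ± 0.15, adjusted p = 0.911). Rrm1, the large subunit, did not pass in FPKM, and in fragments its differences were 0.22 ± 0.07 in RelA(TA2) (adjusted p = 0.0327) and 0.54 ± 0.07 in RelA(S276A) cells (adjusted p = 1.19e-04). Tyms, thymidylate synthase, passed by neither measure. Its largest value, 315 FPKM in the second RelA(S276A) library at 2 h, went with 12.2 fragments per M there, the lowest of all libraries.

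The G1 and S regulators were the least uniform role. Of 8 genes, 0 rose and 1 fell in RelA(TA2) cells in FPKM, where 5.78% of all genes rose and 6.06% fell. In fragments 4 rose and 1 fell there, where 20.8% of all genes rose and 21.1% fell. In RelA(S276A) cells 2 rose in FPKM and 6 in fragments, where 7.23% and 24.2% of all genes rose. Ccnd1 (cyclin D1, mm10, chr7:144929931-144939925, minus strand) had 157, 184 and 189 FPKM in RelA(TA2), 235, 254 and 280 FPKM in RelA(S276A) and 169, 178 and 189 FPKM in RelA(wt) cells. The RelA(S276A) libraries stood above all libraries of the other lines, and those of RelA(TA2) and RelA(wt) covered the same range. Ccnd1 rose by 0.51 ± 0.06, or 1.43-fold, in RelA(S276A) cells (adjusted p = 2.22e-04), and the difference of RelA(TA2) from RelA(wt) was -0.01 ± 0.06 (adjusted p = 0.921). RelA(TA2) was below RelA(S276A) by -0.53 ± 0.06 (adjusted p = 1.79e-04), the smallest adjusted p of the 50 genes in that comparison. At each time alone the difference between the mutant lines also passed, with -0.49 at 0 h, -0.44 at 1 h and -0.66 at 2 h.

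Ccnd2 (cyclin D2, mm10, chr6:127125709-127151048, minus strand) was in fragments the only one of the 50 genes with its highest fitted mean in RelA(wt). In FPKM Ccnb1, Mcm2, Orc1 and Rfc4 shared this trait. Ccnd2 had 58.0, 74.7 and 103 FPKM in RelA(TA2), 73.4, 77.7 and 89.0 FPKM in RelA(S276A) and 78, 90.1 and 94.7 FPKM in RelA(wt) cells. It was lower than in RelA(wt) by -0.25 ± 0.07 in RelA(TA2) cells (adjusted p = 0.0495), a call that 7 of 28 alternatives kept, while the value of -0.14 ± 0.07 in RelA(S276A) cells did not pass (adjusted p = 0.246). With the highest assembled transcript only, the RelA(TA2) difference was 0.06 (adjusted p = 0.862), whereas in fragments it was -0.26 ± 0.07 (adjusted p = 0.00790). Ccna2, cyclin A2 of S phase and G2, rose in RelA(S276A) cells by 0.58 ± 0.13 (adjusted p = 0.0141), and its value in RelA(TA2) cells was 0.16 ± 0.13 (adjusted p = 0.506). Cdk4, the kinase partner of the D-type cyclins, showed small differences of 0.15 ± 0.03 in RelA(TA2) (adjusted p = 6.69e-04) and 0.09 ± 0.03 in RelA(S276A) cells (adjusted p = 0.0108) in fragments and passed in neither line in FPKM. Ccne2, cyclin E2, was listed above 0 in 2 RelA(TA2) libraries (19.1 and 10.2 FPKM), 3 RelA(S276A) libraries (12.4, 15.1 and 16.0 FPKM) and 1 RelA(wt) library (8.67 FPKM) and at 0 in the others.

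**Figure D3:**
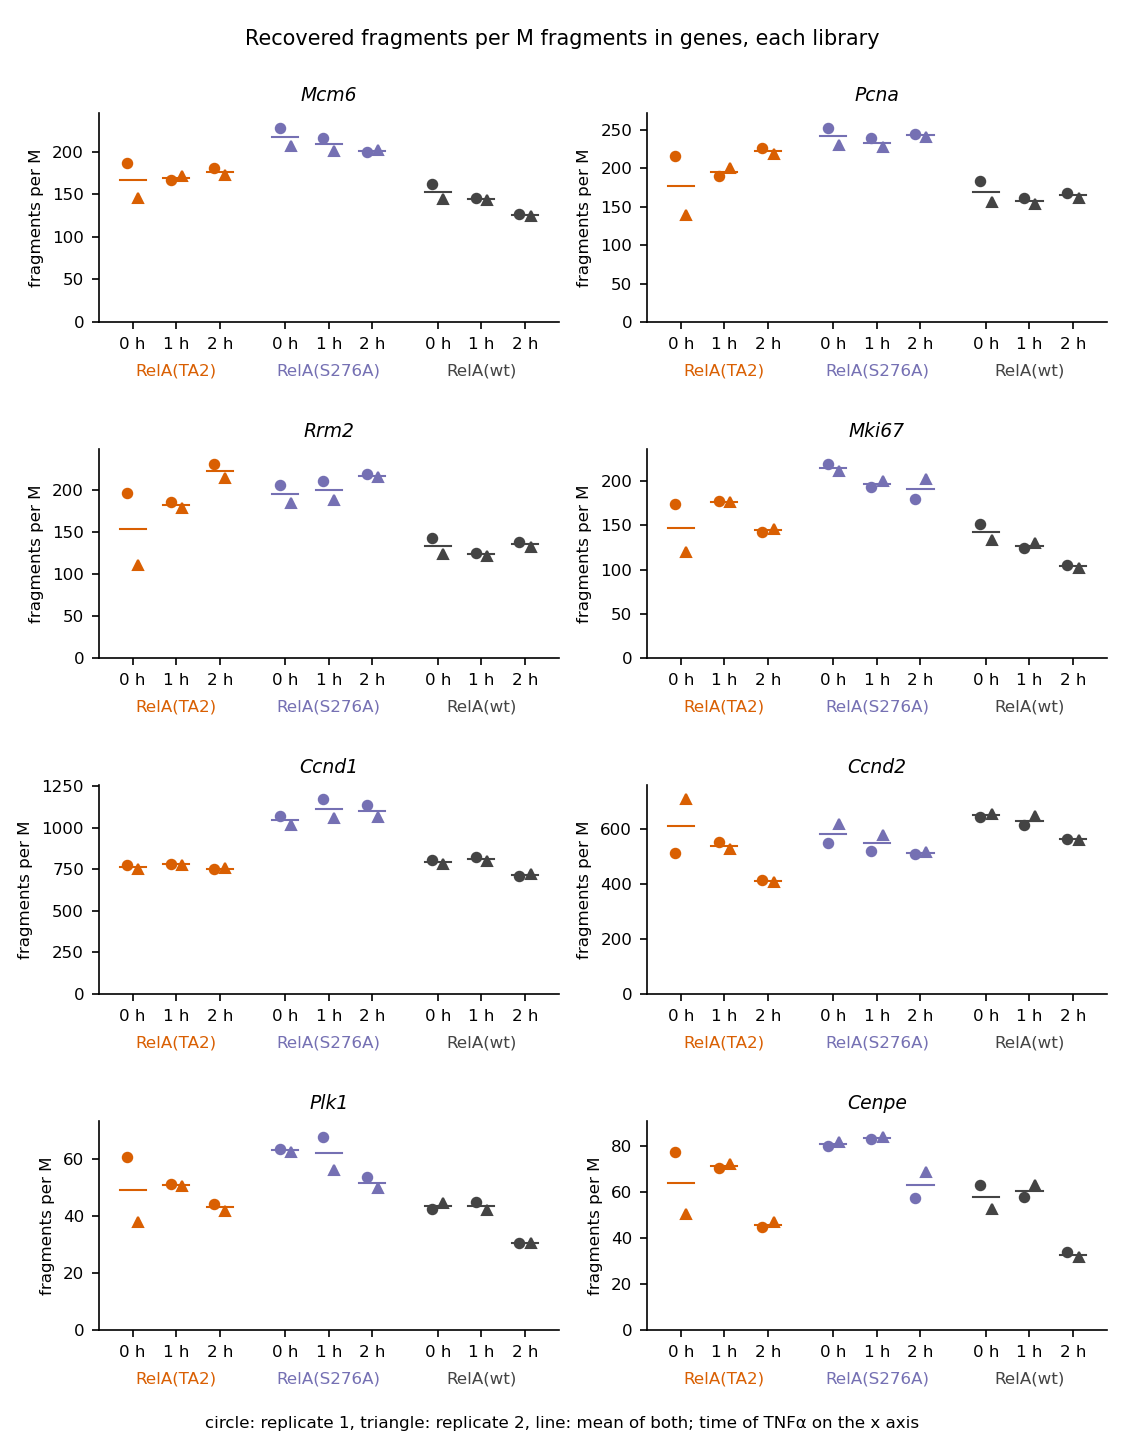
Recovered fragments per M fragments in genes of Mcm6, Pcna, Rrm2, Mki67, Ccnd1, Ccnd2, Plk1 and Cenpe in each library, by line and time of TNFα, with circles for replicate 1, triangles for replicate 2 and a line at their mean. Ccnd1 stands at 1017 to 1171 per M in RelA(S276A) and at 709 to 825 per M in RelA(wt) libraries, and Cenpe is lowest at 2 h in each line.

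Genes of mitotic entry encode the kinases, cyclins and phosphatase that drive cells into mitosis. Of 7 genes, 1 rose in RelA(TA2) cells in FPKM and 5 in fragments, where 5.78% and 20.8% of all genes rose. In RelA(S276A) cells 4 rose in FPKM and all 7 in fragments, where 7.23% and 24.2% of all genes rose. Aurka, the centrosomal Aurora kinase, had 20.6, 25.9 and 30.4 FPKM in RelA(TA2) and 23.7, 29.6 and 33.4 FPKM in RelA(S276A), against 15.4, 20.8 and 24.7 FPKM in RelA(wt) cells. The ranges overlapped, and both mutant lines passed, with 0.38 ± 0.09 in RelA(TA2) (adjusted p = 0.0240) and 0.52 ± 0.09 in RelA(S276A) cells (adjusted p = 0.00424). Foxm1, the transcription factor of the mitotic wave, rose by 0.41 ± 0.08 in RelA(S276A) cells (adjusted p = 0.00793), with 0.23 ± 0.08 in RelA(TA2) cells (adjusted p = 0.102). Cdc25c, a phosphatase that activates CDK1, had 6.98, 8.38 and 10.7 FPKM in RelA(TA2), 10.5, 12.3 and 12.9 FPKM in RelA(S276A) and 6.60, 8.84 and 10.2 FPKM in RelA(wt) cells. Like cyclin D1 it rose in RelA(S276A) cells (0.50 ± 0.10, adjusted p = 0.00892) and was lower in RelA(TA2) than in RelA(S276A) (-0.48 ± 0.10, adjusted p = 0.0108), and its difference of RelA(TA2) from RelA(wt) was 0.02 ± 0.10 (adjusted p = 0.929). Ccnb1, cyclin B1, had 55.9, 87.7 and 97.2 fragments per M in RelA(TA2), 91.0, 96.4 and 97.9 in RelA(S276A) and 58.1, 64.2 and 73.0 in RelA(wt) cells. On that scale it differed by 0.34 ± 0.10 in RelA(TA2) (adjusted p = 0.0206) and by 0.54 ± 0.10 in RelA(S276A) cells (adjusted p = 0.00128), and in FPKM it passed in neither.

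The chromosome and spindle genes encode kinesins, centromere and checkpoint proteins, topoisomerase and the chromosome coat. Of 11 genes, 1 rose in RelA(TA2) cells in FPKM, a share near the 5.78% of all genes that rose. In fragments 10 rose there, where 20.8% of all genes rose. In RelA(S276A) cells 7 rose in FPKM and all 11 in fragments, where 7.23% and 24.2% of all genes rose. Mki67 had 11.5, 14.1 and 15.8 FPKM in RelA(TA2), 16.1, 18.8 and 19.7 FPKM in RelA(S276A) and 8.82, 11.3 and 13.4 FPKM in RelA(wt) cells. Every RelA(S276A) library was above every library of the other lines. Its log2 differences from RelA(wt) were 0.33 ± 0.08 in RelA(TA2) (adjusted p = 0.0227) and 0.72 ± 0.08 in RelA(S276A) cells (adjusted p = 2.61e-04), or 1.26-fold and 1.65-fold, and RelA(TA2) was below RelA(S276A) by -0.39 ± 0.08 (adjusted p = 0.00957). Birc5, survivin of the chromosomal passenger complex, had 56.9, 76.4 and 87.3 FPKM in RelA(TA2), 80.9, 95.8 and 115 FPKM in RelA(S276A) and 46.2, 59.1 and 71.8 FPKM in RelA(wt) cells. It rose by 0.69 ± 0.11 in RelA(S276A) (adjusted p = 0.00215), and the value in RelA(TA2) cells was 0.34 ± 0.11 (adjusted p = 0.0700).

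Whole groups of libraries separated mainly between RelA(S276A) and RelA(wt). In FPKM every RelA(S276A) library was above every RelA(wt) library for 25 of the 50 genes (5.25% of all genes tested), and in fragments for 36 (10.5% of all genes). Every RelA(TA2) library was above every RelA(wt) library for 3 genes in FPKM, Mcm3, Pold1 and Aurkb (3.16% of all genes), and for 5 in fragments, Mcm2, Pold1, Cdk2, Cdk4 and Aurkb (6.37% of all genes). A share of 3 or 5 in 50 is near the share of all genes, and in fragments the second RelA(TA2) library at 0 h lay at or below the highest RelA(wt) library for most of the 47 genes. Every RelA(TA2) library was below every RelA(S276A) library for 7 genes in FPKM (4.17% of all genes), which were Mcm6, Gins1, Rfc3, Pola1, Pole, Ccnd1 and Mki67, and for 14 in fragments (8.82% of all genes). The 13 genes that were assembled as 1 transcript in every library are those in which summed pieces play no part. Of these, 5 rose in RelA(TA2) and 12 in RelA(S276A) cells in FPKM, and 12 and all 13 in fragments. The shares of all genes were 5.78% and 7.23% in FPKM, and 20.8% and 24.2% in fragments.

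At each time taken alone, with 2 libraries against 2, fewer genes passed in FPKM. In RelA(TA2) against RelA(wt), 0 genes rose at 0 h (2.14% of all genes did), 0 at 1 h (1.20%) and 1, Mcm6, at 2 h (1.55%), by limma. At an unadjusted p under 0.05 these counts were 3, 9 and 18. The share of all genes at that p is not given, so that these counts cannot be set against it. In RelA(S276A) against RelA(wt), 3 genes, Mcm6, Mcm7 and Rfc3, rose at 0 h (0.946% of all genes), 4, Mcm6, Mcm7, Ccnd1 and Mki67, at 1 h (1.50%) and 4, Mcm6, Pole, Ccnd1 and Mki67, at 2 h (1.57%). In fragments, RelA(TA2) was higher than RelA(wt) in 2 genes, Mcm2 and Cdk4, at 0 h (12.5% of all genes), in 10 at 1 h (8.68%) and in 31 at 2 h (11.0%), when Ccnd2 was lower by -0.45 (12.2% of all genes were lower). RelA(S276A) was higher in 29 genes at 0 h (9.35%), in 35 at 1 h (11.3%) and in 41 at 2 h (14.9%). The median difference over the 50 genes in fragments was 0.12, 0.35 and 0.48 in RelA(TA2) at 0, 1 and 2 h, and 0.50, 0.54 and 0.64 in RelA(S276A) cells. Without either RelA(TA2) library at 0 h, the counts of RelA(S276A) in FPKM became 8, 13 and 13 at 0, 1 and 2 h, and those of RelA(TA2) became 2 at 1 h and 9 up and 1 down at 2 h. At 0 h RelA(TA2) then had 1 gene higher in FPKM. In fragments the values of RelA(TA2) at 0 h turned on which library was kept. Without the second library 23 genes were higher and 1 lower than in RelA(wt) in fragments, and without the first 0 were higher and 12 lower. Without either RelA(TA2) library at 0 h, the median in fragments stayed at 0.35 and 0.48 in RelA(TA2) at 1 h and 2 h. That of RelA(S276A) stayed at 0.50 at 0 h. More of the 50 genes passed in each of these comparisons, since the pair had widened the shared estimate of the spread. The share of all genes that then passed is not given.

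Few of these genes changed over the hours with TNFα. No untreated libraries were taken at 1 h or 2 h, so that TNFα cannot be told apart from time in culture. At 1 h against 0 h, as the mean over the lines, limma called 0 of the 50 genes in FPKM. Of all genes 1.91% rose and 2.39% fell by that test. At an unadjusted p under 0.05, 2 of the 50 rose and 0 fell, where 676 of 12259 genes rose and 1067 fell. In fragments limma also called 0, where 5.75% of all genes rose and 10.7% fell. There 1 of the 50 rose and 1 fell at an unadjusted p under 0.05, where 1122 of 11797 genes rose and 2160 fell. The medians were 0.01 by both measures. In FPKM 2 genes passed without the second RelA(wt) library at 1 h and 1 without either RelA(S276A) library at 1 h. In fragments 10 (9 up, 1 down) passed without the first RelA(TA2) library at 0 h, 5 (all down) without the second, and 1 without the first RelA(wt) library at 0 h or the first RelA(S276A) library at 1 h. At 2 h against 0 h, 1 gene fell in FPKM, Ccnd2, by -0.33 ± 0.07 (adjusted p = 0.0160), where 5.02% of all genes fell. In fragments 10 fell, where 26.3% of all genes fell, so that the share of these genes was below that of all genes. The 10 were Cdt1, Ccnd2, Cdk2, E2f1, Cdc25c, Plk1, Aurka, Bub1b, Cenpe and Mki67, of which Cdt1 licenses origins, E2f1 drives the S phase genes and Plk1, Bub1b and Cenpe act in mitosis. Over all genes the split at 2 h was 1476 up and 3097 down in fragments, and 2070 up and 2012 down after median-of-ratios scaling, under which 1 of the 50 genes rose and 4 fell. In FPKM the split was 459 up and 616 down, and 545 up and 403 down after that scaling. In fragments at 1 h it was 678 up and 1266 down, and 893 up and 999 down after it. The counts at 2 h also turned on the RelA(TA2) libraries at 0 h, with 24 genes down without the second, and 8 up and 9 down without the first. They were 6 without the second RelA(TA2) library at 2 h, and in FPKM 5 (all down) without the second RelA(TA2) library at 0 h, and 3 without the first (1 up, 2 down) or without the first RelA(wt) library at 0 h.

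In RelA(wt) cells 4 of the 50 genes fell at 2 h in fragments, a share near the 6.78% of all genes that fell. Cenpe, a centromere-bound kinesin, had 63.0 and 52.8 fragments per M at 0 h, 57.7 and 63.1 per M at 1 h and 33.8 and 31.7 per M at 2 h in RelA(wt) cells. Neither library at 2 h overlapped with the earlier times, and the difference of 2 h from 0 h was -0.81 ± 0.16 (adjusted p = 0.00649). Mki67 had 105 and 102 fragments per M at 2 h, against 152 and 133 per M at 0 h in this line, a difference of -0.46 ± 0.13 (adjusted p = 0.0393). The others were Bub1b and Cdk2, and 0 of the 50 fell in FPKM. At an unadjusted p under 0.05 by limma 7 fell in FPKM, for which the share of all genes is not given. Without either RelA(TA2) library at 0 h, 21 fell in RelA(wt) cells in fragments. In RelA(TA2) cells at 2 h Ccnd2 fell in FPKM (-0.57, adjusted p = 0.0302, where 2.15% of all genes fell) and in fragments (-0.55, adjusted p = 0.00496, where 18.7% of all genes fell). Cdc45, Rrm2 and Cenpa rose there in fragments by 0.37, 0.59 and 0.52, where 9.09% of all genes rose. With the second RelA(TA2) library at 0 h left out, 0 rose and 7 fell in that comparison, and with the first left out 26 rose and 1 fell. In FPKM 4 rose and 2 fell without the first and 0 passed without the second. At 1 h 0 of the 50 genes passed within any line by either measure, but in RelA(TA2) cells 30 rose and 1 fell in fragments without the first library at 0 h and 1 fell without the second, and in FPKM 1 rose and 1 fell without the first. In RelA(S276A) cells limma called 0 at 2 h by either measure. At an unadjusted p under 0.05, 0 rose and 2 fell in FPKM and 0 rose and 6 fell in fragments. The share of all genes at that p is not given. Some of the 50 fell in fragments without either RelA(TA2) library at 0 h.

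**Figure D4:**
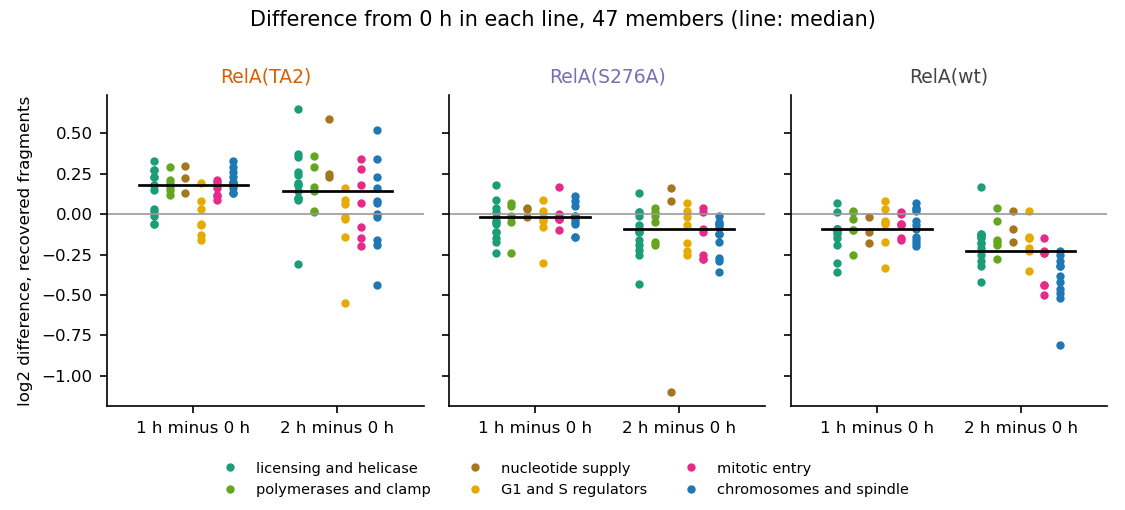
Log2 difference from 0 h at 1 h and 2 h of TNFα in each line in recovered fragments, 1 point for each of 47 genes coloured by role, with a line at the median. The medians are 0.18 and 0.14 in RelA(TA2), -0.02 and -0.09 in RelA(S276A) and -0.09 and -0.23 in RelA(wt), and the chromosome and spindle genes lie lowest in RelA(wt) at 2 h.

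The test of whether the change from 0 h differed between a mutant line and RelA(wt) called 0 of the 50 genes at either time in FPKM and in fragments (limma). At 2 h in RelA(TA2) cells 4 genes in FPKM and 13 in fragments had an unadjusted p under 0.05, all of them in the direction of a higher value in RelA(TA2). Over all genes 359 of 12259 in FPKM and 669 of 11797 in fragments were higher at that p, and 530 and 1036 were lower. The median of that difference over the 50 genes was 0.36 in fragments with all libraries, 0.13 without the second RelA(TA2) library at 0 h and 0.63 without the first, and the count of calls was then 0 and 31 (30 up, 1 down). At 1 h the median was 0.24 with all libraries, 0.00 without the second and 0.47 without the first, and the count of calls in fragments was then 0 and 26 (25 up, 1 down). The counts of 0 for RelA(TA2) thus turned on the first library at 0 h. In FPKM 1 gene passed at each time without it. In RelA(S276A) cells the medians were 0.05 at 1 h and 0.15 at 2 h.

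Of 130 further genes of the same processes on the lists, 126 were tested. Against RelA(wt), 16 rose and 2 fell in RelA(TA2) cells in FPKM, where 5.78% of all genes rose and 6.06% fell, and 47 rose and 5 fell in RelA(S276A) cells, where 7.23% rose and 5.38% fell. In fragments 69 rose and 7 fell in RelA(TA2) (20.8% and 21.1% of all genes), and 97 rose and 5 fell in RelA(S276A) cells (24.2% and 20.9% of all genes). Among 46 other mitosis genes, 9 rose in RelA(TA2) and 25 in RelA(S276A) cells. Ndc80, of the outer kinetochore, differed by 0.57 ± 0.08 in RelA(TA2) (adjusted p = 0.00123) and 0.70 ± 0.08 in RelA(S276A) cells (adjusted p = 3.34e-04). Among 36 other replication genes, 5 rose in RelA(TA2) and 12 in RelA(S276A) cells, among them Chaf1b, a histone chaperone subunit at the fork, with 0.49 ± 0.09 (adjusted p = 0.00619) and 0.78 ± 0.09 (adjusted p = 3.68e-04). Of 14 further E2F and DREAM factors, 2 rose in RelA(TA2) cells, and 5 rose and 1 fell in RelA(S276A) cells, where Tfdp1, the dimerization partner of E2F, had 0.35 ± 0.04 (adjusted p = 2.15e-04). In fragments 8 of the 14 rose and 0 fell in RelA(S276A) cells. Among 12 inhibitors of cyclin-dependent kinases, pocket proteins and related antiproliferative genes, 0 rose and 1 fell in RelA(TA2) cells, and 2 rose and 2 fell in RelA(S276A) cells. In fragments 2 of the 12 rose and 2 fell in RelA(TA2) cells, and 2 rose and 1 fell in RelA(S276A) cells.

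The members of that last group which fell were Btg2, by -0.43 ± 0.09 in RelA(TA2) (adjusted p = 0.00942) and -0.50 ± 0.09 in RelA(S276A) cells (adjusted p = 0.00391), and Cdkn2a, by -0.40 ± 0.11 in RelA(S276A) cells (adjusted p = 0.0364). Btg2 is known to restrain cell division and Cdkn2a encodes the inhibitors p16 and p19Arf. The Btg2 values are means over the times, and the difference was largest at 1 h of TNFα. Btg2 then had 75.3 and 91.5 FPKM in RelA(TA2), 104 and 86.9 FPKM in RelA(S276A) and 175 and 182 FPKM in RelA(wt) cells. At 0 h it had 13.4 and 14.5, 12.9 and 12.1, and 16.5 and 16.9 FPKM in the same order. At 2 h the libraries of each mutant line overlapped with those of RelA(wt). The fall of Cdkn2a was not seen in fragments. There it had 79.7 to 98.9 per M in RelA(S276A) and 84.8 to 91.5 per M in RelA(wt) libraries, which overlapped. Those that rose in RelA(S276A) cells were Rbl1, a pocket protein, by 0.66 ± 0.16 (adjusted p = 0.02), and Cdkn2d, a CDK4 inhibitor, by 0.31 ± 0.08 (adjusted p = 0.0304). Among 18 other cyclins, kinases and phosphatases, 0 rose and 1, the CDK1-inhibiting kinase Wee1, fell in RelA(TA2) cells (-0.40 ± 0.11, adjusted p = 0.0471), and 3 rose and 2 fell in RelA(S276A) cells. Cyclin D3 (Ccnd3) was lower in RelA(S276A) cells by -0.40 ± 0.07 (adjusted p = 0.00303), so that the D-type cyclins differed in direction in this line.

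At 1 h of TNFα as the mean over the lines, 4 of the 126 rose and 3 fell in FPKM, where 1.91% of all genes rose and 2.39% fell, so that the share that fell was near that of all genes. The risers were Btg2 (2.93 ± 0.09, adjusted p = 9.04e-09), Myc (1.55 ± 0.07, adjusted p = 3.55e-07), Btg1 (0.49 ± 0.10, adjusted p = 0.0143) and Cdkn1a (0.49 ± 0.07, adjusted p = 0.00136), the gene of the inhibitor p21. Ccng2, an unusual cyclin of cells that leave the cycle, had the largest fall of the called genes of these lists at both times, by -0.72 ± 0.06 at 1 h (adjusted p = 3.27e-05) and -1.05 ± 0.06 at 2 h (adjusted p = 3.41e-06). At 2 h 2 rose, E2f8 (0.60 ± 0.08, adjusted p = 0.00151), an E2F factor that represses, and Cdk6 (0.46 ± 0.11, adjusted p = 0.0290), and 12 fell, of which 7 were mitosis genes, where 3.74% of all genes rose and 5.02% fell. Cdk6 jumped within conditions, with 45.9 and 7.47 fragments per M in RelA(TA2) at 0 h and 57.9 and 15.7 per M in RelA(wt) at 1 h. Its rise is given with that limit. The change of Myc at 1 h differed between lines. Myc had 59.3 and 66.6 FPKM at 1 h and 32.7 and 33.1 FPKM at 0 h in RelA(TA2) cells, against 91.0 and 78.4 FPKM at 1 h and 17.8 and 19.7 FPKM at 0 h in RelA(wt) cells. Both libraries of RelA(TA2) were thus above those of RelA(wt) before TNFα and below them at 1 h, and the difference of the changes was -1.22 ± 0.18 (limma, adjusted p = 0.0174).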

How the data were processed

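RNA was sequenced on an Illumina instrument in 18 libraries, 2 for each of 9 conditions, which the study's methods call independent, so that p-values measure the spread between them. Per the submitters' processing notes, the authors used CASAVA 1.8.2, TopHat2 2.0.5, Bowtie2 2.0.0.7 and Cufflinks 2.0.2 on mm10, and deposited assembled transcripts with their FPKM and confidence limits for each library, and a merged annotation without levels. The authors' comparisons of conditions were not used here.

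The FPKM of the transcripts that lay on a gene (at least 50% of their bases in its exons, or covering 50% of its exonic bases, same strand) were added, and genes under 200 exonic bases were left out. Every gene that reached 1 FPKM in 2 or more libraries was tested with limma 3.58.1 (R 4.3.3) on log2(FPKM + 0.5), which understates changes of low genes, with 9 condition means, 9 residual degrees of freedom, a variance trend, and two-sided p-values adjusted by Benjamini-Hochberg over all genes of a comparison, with a threshold of 0.05. For a transcript alone at its assembled locus, the number of fragments was recovered from the deposited FPKM and confidence limits. Of such numbers under 500, 89.3% were whole within 0.02, as the median over libraries. For other transcripts the number was FPKM times the median ratio of fragments to FPKM at that transcript length. The sums were tested alike per M fragments in genes over 11797 genes. These are estimates and no count test was run on them. The test was also run on simulated data for RelA(TA2) against RelA(wt), with normal noise and fewer changed genes than were called in the data. Changes of 0.5, 1 and 2 on the log2 scale were recovered in 26.2%, 60.0% and 87.5% of genes in FPKM. In fragments they were recovered in 75.0%, 76.2% and 95.0%. Of the calls, 8.77% in FPKM, above the threshold, and 3.64% in fragments were false. These rates may differ in the data.

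The genes and lists were chosen with earlier results of these data known. Named were Rela, genes past the test (up to 10 in each direction of a comparison), the 2 genes of each role with the smallest p, Mki67, Pcna, Ccnd1, Ccnd2, Ccnb1 and Mcm2, genes listed at 0 in a library, and up to 5 genes past the test of each further list. Genes named for tests in fragments, at single times, within a line or for separated libraries, and Tyms, Rrm1 and Cdk4, were chosen after their values were seen. Replicate numbers are shared between conditions but did not pair the libraries by the correlation of their deviations over all genes, although the median of the genes described was lower in the second library in all 9 conditions. Alternatives were the added amount, the filter, the scaling, the highest transcript only, recovered fragments, a replicate block and each library left out. Those on recovered fragments, and the counts without each RelA(TA2) library at 0 h, were chosen after seeing the data. Promoters came from RefSeq (GRCm38.p6).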

Additional observations from a re-analysis of the deposited data

Results flagged for a closer look

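The change of Myc at 1 h of TNFα differed between RelA(TA2) and RelA(wt) cells by a test of the difference itself. The log2 change in RelA(TA2) minus that in RelA(wt) was -1.22 ± 0.18 in FPKM (SE, limma, adjusted p = 0.0174, 2 libraries per condition) and -1.06 ± 0.13 in recovered fragments (adjusted p = 0.00346). The same difference for RelA(S276A) was -0.57 (adjusted p = 0.641). Myc is one of the further genes and not of the 50, for which limma called 0 such differences.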

How the results depend on the processing

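The 9 calls in RelA(TA2) against RelA(wt) became 15 with the highest transcript only, 39 in recovered fragments and 1 to 16 with a library left out, and Ccnd2 turned to 0.06 with the highest transcript only. The 29 in RelA(S276A) became 45 in fragments and 21 to 28 with a library left out. The 7 in RelA(TA2) against RelA(S276A) became 27 in fragments, 11 with a replicate block and 4 to 15 with a library left out, 15 without the first RelA(TA2) library at 0 h and 4 without the first RelA(S276A) library at 0 h. The calls at each time (12) became 149 in fragments and up to 47 without either RelA(TA2) library at 0 h. At 1 h the count of 0 became 0 to 2 with a library left out. At 2 h the count of 1 became 10 in fragments and 1 to 5 with a library left out. In fragments, the count of 0 at 1 h became 1 with median-of-ratios scaling, 1 with a replicate block and 0 to 10 with a library left out, and that of 10 at 2 h became 5 with that scaling and 6 to 24 with a library left out. Left-out ranges in fragments were 29 to 42 for the 39 calls, 43 to 46 for the 45 and 22 to 38 for the 27. Within lines the 1 call became 8 in fragments and 0 to 8 in FPKM with a library left out, and for the difference between lines 0 in FPKM became 0 to 2. In fragments only the RelA(TA2) libraries at 0 h were left out here. Without the first, the difference between RelA(TA2) and RelA(wt) gave 26 calls at 1 h and 31 at 2 h, and the change within RelA(TA2) gave 31 and 27. Without the second these were 0, 0, 1 and 7. A lone library was assumed to vary like the others. Correlations of same-numbered libraries ran between -0.0909 and 0.287 in fragments, so that the block, which gave 11 calls in RelA(TA2) and 27 in RelA(S276A) against RelA(wt), stands as an alternative only. Over the genes called and their alternatives, 721 values of RelA(S276A) against RelA(wt) stayed past the test and 91 kept their direction only, as did 167 and 84 of RelA(TA2) against RelA(wt), 172 and 24 of RelA(TA2) against RelA(S276A) and 27 and 1 at 2 h. What limits these values is 2 libraries per condition, 1 population per line, and FPKM that depend on how each library was assembled.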
